A study of Homo sapiens with 2 samples.

Results

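The replication-dependent histone genes of chromosome 6 were compared between both libraries of a whole-genome bisulfite sequencing (WGBS) experiment, in which unmethylated cytosines are read as T and methylated cytosines as C. Members were the protein-coding genes of the major histone region of chromosome 6, whose first and last member lie at chr6:26017260-26018015 and chr6:27861203-27861669 (hg19), with a symbol that marks a histone of the H1, H2A, H2B, H3 or H4 family, and each was measured with 1 kb on each side. This gave 50 of the 20162 protein-coding genes of chromosomes 1 to 22, X and Y, namely 6 H1, 11 H2A, 12 H2B, 10 H3 and 11 H4 genes. Their windows held 3531 of the 14699127 CpGs that had at least 1 read in both libraries.

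Both libraries came from HEK293T, a line of human embryonic kidney cells kept in culture. The negative control (Neg) is described by the study as cells that were not transduced. The other library (dCas9+3A+HOXA5) came from cells transduced by lentivirus with a nuclease-dead Cas9 that carries the SunTag peptide array, with the methyltransferase isoform DNMT3A1 fused to an antibody fragment that binds the array, and with a guide RNA against HOXA5 on chromosome 7. These cells were sorted for fluorescence and collected 30 days after infection. GEO attaches the same treatment text to both samples, so that only the title separates them. There was 1 library in each group and no replicate, so a difference could not be set against the spread between replicates, and every test below compares the reads of 2 libraries and not the conditions.

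Replication-dependent histone genes are short genes, mostly without introns, that are transcribed at a high rate while DNA is copied in S phase and supply the core and linker histones for the new chromatin. Their mRNAs end in a conserved stem-loop in place of a poly(A) tail. Many H2A and H2B genes lie head to head and share the stretch between their starts. The families hold many near-identical copies. For 21.0% of the CpGs read in the member windows, the surrounding 50 bases after bisulfite conversion occurred more than once in the reference, against 30.3% over the whole interval that holds the genes. Such CpGs are called recurring here, and the main values are given beside values without them.

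The stem-loop is a feature of the members that the choice by symbol did not use, and its most common forms are shown. A search for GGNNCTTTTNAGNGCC on the coding strand, from 120 bases before to 60 bases after the end of the transcript, found 47 of 50 members to carry 1 such element of 16 bases. H3C6, H2BC10 and H4C13 had no match in that window. The form found in most members, 28 of them, belongs to genes such as H1-2 and H2AC13, the next form to 8 genes, all of the H4 family, and another form to 7 genes such as H1-1 and H2BC11. A form not shown was found in 2 genes, H4C9 and H4C12, also of the H4 family. The loop is in capitals, the coordinates are those of GRCh37, which are the coordinates of hg19, and each sequence is written on the strand of its gene.
H2AC13, plus strand, chr6:27776425-27776440: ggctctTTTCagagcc
H4C11, plus strand, chr6:27792237-27792252: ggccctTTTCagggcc
H2BC11, minus strand, chr6:27100100-27100115: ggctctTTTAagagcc

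The stretches between the starts of 3 head-to-head pairs are shown as examples. That of H2BC11 and H2AC11 had no methylated read in either library, with 2 of its 11 CpGs read in both (0 of 10 and 0 of 12 reads). That of H2BC13 and H2AC13 was lower in dCas9+3A+HOXA5. That of H2AC14 and H2BC14 was lower too, with 18 of 18 methylated reads in Neg and 30 of 34 in dCas9+3A+HOXA5, although the gene windows around it were higher. Each runs from the base after the start of the gene on the minus strand to the base before the start of the gene on the plus strand, is written on the plus strand of GRCh37, and has the CpGs that were read in both libraries in capitals.
H2BC11 to H2AC11, chr6:27100575-27100821: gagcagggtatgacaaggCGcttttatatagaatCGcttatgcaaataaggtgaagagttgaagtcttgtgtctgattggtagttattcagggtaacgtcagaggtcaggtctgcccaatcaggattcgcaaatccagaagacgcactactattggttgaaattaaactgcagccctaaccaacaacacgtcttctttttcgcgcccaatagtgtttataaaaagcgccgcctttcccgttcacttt
H2BC13 to H2AC13, chr6:27775708-27775950: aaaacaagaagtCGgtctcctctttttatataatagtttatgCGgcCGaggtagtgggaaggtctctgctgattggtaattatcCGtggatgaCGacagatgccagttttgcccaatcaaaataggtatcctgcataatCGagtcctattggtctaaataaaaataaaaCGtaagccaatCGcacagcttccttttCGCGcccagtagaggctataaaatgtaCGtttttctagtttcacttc
H2AC14 to H2BC14, chr6:27782556-27782799: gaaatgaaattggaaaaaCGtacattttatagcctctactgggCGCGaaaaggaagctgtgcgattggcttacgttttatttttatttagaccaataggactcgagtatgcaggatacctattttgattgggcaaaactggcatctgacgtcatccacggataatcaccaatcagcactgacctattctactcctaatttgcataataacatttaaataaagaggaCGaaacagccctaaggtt
The stretches of H2BC13 to H2AC13 and H2AC14 to H2BC14 are inverted relatives. Their longest shared run, read on opposite strands, was 93 bases with 6 CpGs, against 8 bases when both were read on the same strand.

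The promoters of the members held elements that the class is known for. In RefSeq promoter sequences (GRCh38.p14, 250 bases before to 50 after the start), which matched 49 of the 50 members, TATAAA on either strand was present in 32 of 49 (65.3%), against 9.63% of all 15843 protein-coding promoters. CCAAT was present in 40 of 49 (81.6%, against 36.4% of all), including each matched H1, H2A, H2B and H3 promoter but only 2 of 11 H4 promoters. ATTTGCAT, the octamer bound by POU2F1, was found in 8 of 10 H2A and 9 of 12 H2B promoters, in 1 of 10 H3 promoters and in none of the 6 H1 or 11 H4 promoters, against 1.70% of all. Motifs were searched one by one, so that matches of different motifs may overlap. Promoters of head-to-head H2A and H2B genes overlap, so 1 site can count for both genes. The member promoters held a median of 11 CpGs, against 22 over all promoters.

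The Neg library was the deeper of the pair, with 89774283 reads summed over CpGs and on average 3.80 (median 3) per CpG, while dCas9+3A+HOXA5 had 46703423, on average 2.89 (median 2) per CpG. In the member windows, 3531 of 4998 reference CpGs (70.6%) were read in both, and only 533 of them at least 5 times in both. Each window held between 36 and 398 of these CpGs, with 122 to 1669 reads in Neg and 96 to 1363 reads in dCas9+3A+HOXA5. The level of a region was the mean over its CpGs of the deposited methylation fraction. Intervals are 95% Wilson intervals of methylated reads and cover counting error only. Read depth and near-identical copies moved with several results.

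The first question was where these genes stood in HEK293T cells, and the answer split the family into genes with low and genes with high methylation that lay side by side. Over the promoter, taken as 500 bp before to 100 bp after the start, 24 of the 49 members with at least 5 covered CpGs were below 20% in both libraries and 16 were above 80% in both, which left 9 between or on different sides. Over all 16324 protein-coding promoters these shares were 69.3%, 8.65% and 22.05%. Of 11 promoters of the other protein-coding genes that start in the interval, 7 were below 20% and 1 was above 80% in both. Promoters of head-to-head pairs overlap, so the counts of members hold some CpGs and reads for both genes of a pair. Pairs with both promoters below 20% were H2BC4 with H2AC6, H2BC11 with H2AC11, H2BC12 with H2AC12, H2AC15 with H2BC15 and H2AC17 with H2BC17.

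The low class was close to 0. Its median was 0.65% in Neg against 0.27% in dCas9+3A+HOXA5, and its highest values were 18.0% and 14.3%. It included the linker histone genes H1-2 and H1-4, the pairs H2BC11 with H2AC11 and H2BC12 with H2AC12, and 7 of 11 H4 genes. The high class had a median of 91.7% in Neg against 95.2% in dCas9+3A+HOXA5, with no value below 82.4%. Among these were the linker histone genes H1-1 and H1-5, and H3C3, H3C4, H3C6, H3C8 and H3C12, so that 5 of 10 H3 promoters were high, against 2 of 11 H2A promoters. The RefSeq promoters of the low class held a median of 14 CpGs and those of the high class 8.

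**Figure D1:**
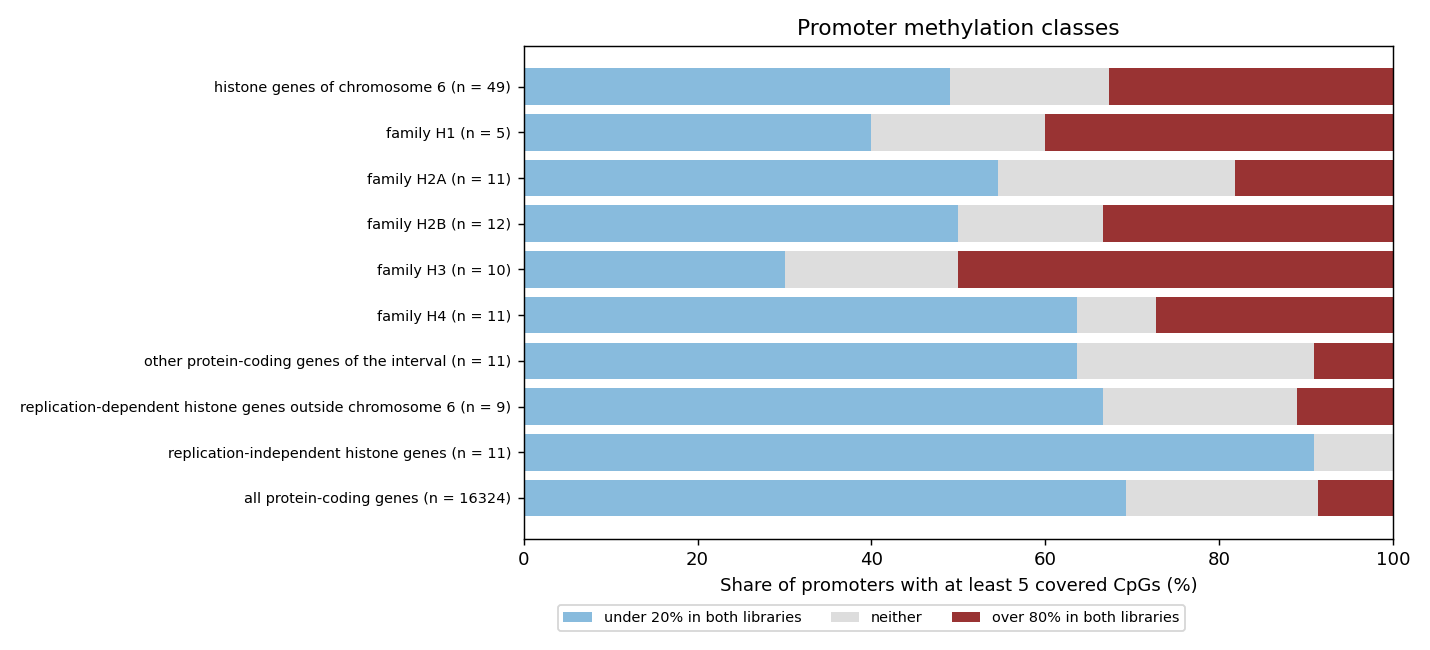
Share of promoters (%) that were below 20% in both libraries, above 80% in both, or neither, for the histone genes of chromosome 6, their 5 families and 4 comparison lists, with the number of promoters beside each name. Of the 49 histone promoters of chromosome 6, 32.7% were above 80% in both libraries, against 8.65% of all protein-coding promoters. Promoters of head-to-head pairs overlap and share CpGs.

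The H1 genes show the contrast most plainly. H1-2, at chr6:26055968-26056698, had a window level of 0.62% in Neg against 1.13% in dCas9+3A+HOXA5, and H1-4 had 0.74% and 1.85%. H1-1, at chr6:26017260-26018015 in the same gene group, had 93.9% and 96.9%. H1-5 had 88.6% and 94.5%, and the testis gene H1-6 had 83.2% and 84.8%. None of the 59, 72, 80 and 48 covered CpGs around H1-2, H1-4, H1-1 and H1-6 was recurring, so these levels were the same without such CpGs. The remaining linker gene, H1-3, lay between, with 62.3% and 68.0%: its 1 kb after the end was at 93.0% and 92.0%, its transcript at 25.2% and 40.2%. H2AC1 and H2BC1, testis histone genes that lie on chromosome 6 just outside the interval, had windows at 80.6% and 86.8% in Neg and 85.2% and 90.7% in dCas9+3A+HOXA5.

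Along the chromosome the members formed 3 gene groups far from each other: 29 genes in the first (chr6:26017260-26285866), 5 in the second (chr6:27093676-27115341) and 16 in the third (chr6:27775257-27861669). Each group held both classes. Of the promoters, 14 were low and 10 high in the first group, 4 low and 1 high in the second, and 6 low and 5 high in the third. The single high promoter of the second group was that of H4C9, an H4 gene with a window level of 91.9% in Neg against 95.8% in dCas9+3A+HOXA5 between pairs of H2A and H2B genes whose windows ranged from 0.33% to 20.3% in Neg. Over the windows with their flanks, 16 of 50 genes were low in both libraries, 16 high in both and 18 neither, against 3.76%, 8.94% and 87.3% of all protein-coding windows. The shares over all windows were not matched for length. Of the members, 9 have annotated genes of 2 kb or more, so their windows reach beyond the canonical transcript and its flanks. The H2BC4 window, with levels of 58.3% and 64.4%, contains the genes H4C3 and H1-6. Its canonical transcript with 1 kb on each side stood at 3.65% and 8.42%. Measured so, H2AC6, H2BC5, H2BC11 and H2BC15 were also low, and H2BC6 and H3C6 high, in both libraries. H4C8 and H3C12 stayed neither.

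**Figure D2:**
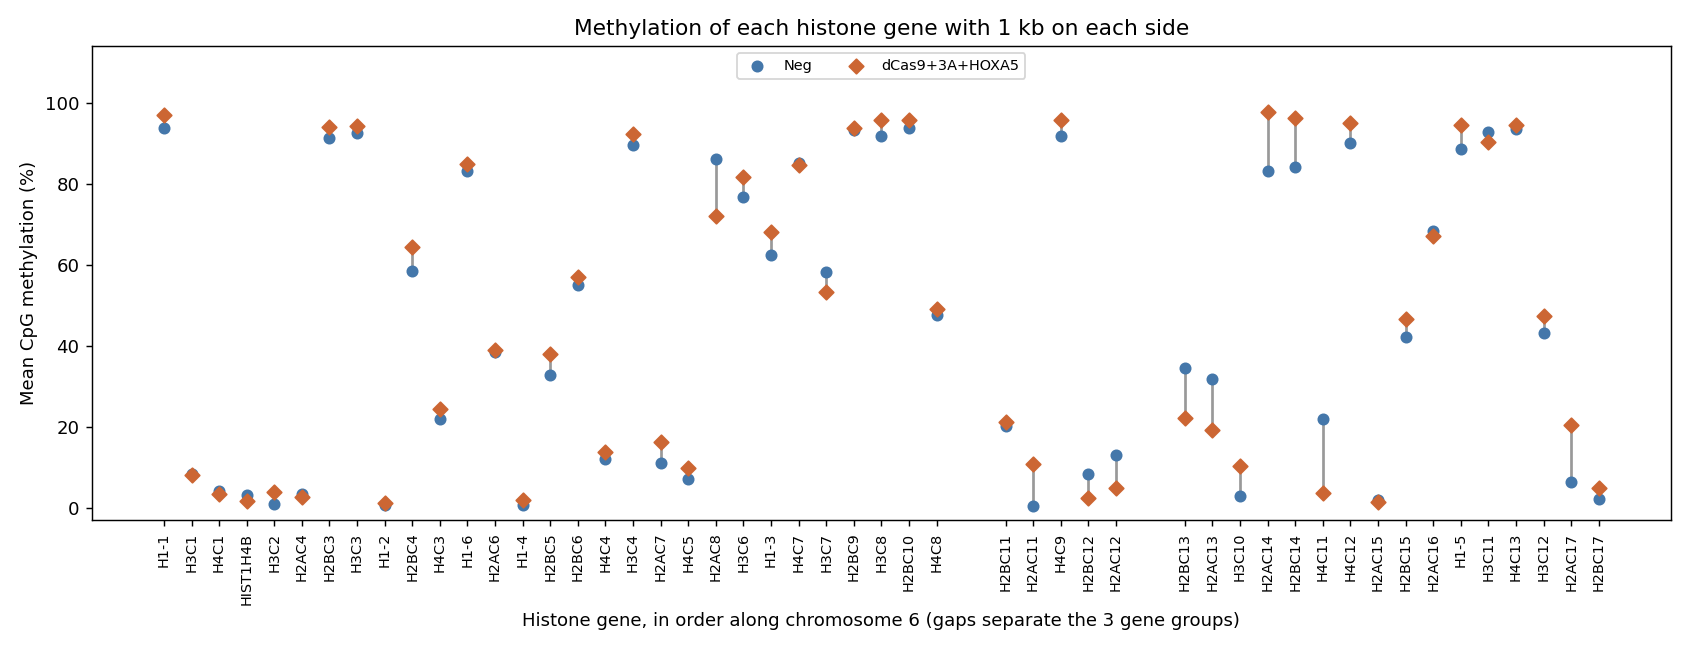
Mean CpG methylation (%) of each of the 50 histone genes with 1 kb on each side, in order along chromosome 6, in Neg (circles) and dCas9+3A+HOXA5 (diamonds), joined by a line for each gene. Levels near 0 and above 80% alternate in all 3 gene groups, and the longest joins are those of H4C11, H2AC14, H2AC17 and H2AC8.

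The second question was whether the cells with DNMT3A and the HOXA5 guide differed at these genes, which lie on another chromosome than the guide target. A gene window was called where the levels differed by more than 20 percentage points and Fisher's exact test (two-sided, on methylated and unmethylated reads summed over the window, Benjamini-Hochberg adjusted over 19661 protein-coding windows) gave an adjusted p under 0.01. None of the 50 members was called, higher or lower, with 1.97% of all windows called higher and 0.178% lower. Without the threshold on size, 11 members had a higher and 5 a lower share of methylated reads at an adjusted p under 0.01, against 36.7% and 5.75% of all windows. Above 10 points, 4 members were higher (H2AC11, H2AC14, H2BC14 and H2AC17, with 8.35% of all windows) and 3 lower (H2BC13, H2AC13 and H4C11, with 0.819% of all windows). The windows of H2AC14 and H2BC14 overlap, as do those of H2BC13 and H2AC13, so these counts hold many of the same CpGs and reads. A Mantel-Haenszel test that compares reads within each CpG also called none, with 2% of all windows called higher and 0.163% lower.

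The median difference over the members was 1.82 points, with 35 windows above and 15 below 0. That over all protein-coding windows was 3.61 points, and that over the windows of chromosome 6 was 4.51 points. Counting each CpG once, the member windows had a mean of 50.8% in Neg against 52.6% in dCas9+3A+HOXA5 (methylated reads 51.4%, interval 50.6 to 52.1%, and 53.5%, interval 52.6 to 54.4%). The spaces between protein-coding genes in the interval went from 65.3% to 69.6%, and chromosome 6 as a whole from 67.8% to 76.1%. Differences below are as measured, without subtracting this difference between the libraries, which was not the same for all regions. Over all promoters the median difference was 0 points, and over all canonical transcripts under 20% in Neg it was 0.67 points.

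Within the members, the parts of the gene differed. The transcripts had a pooled mean of 41.5% in Neg against 39.0% in dCas9+3A+HOXA5 (methylated reads 44.8%, interval 43.7 to 46.0%, and 41.7%, interval 40.3 to 43.1%). The 1 kb after the end had 45.2% and 50.9% (methylated reads 45.3%, interval 43.8 to 46.8%, and 50.7%, interval 48.9 to 52.6%). The families did not share 1 direction. The mean within transcripts was 2.32 points higher in dCas9+3A+HOXA5 for H1 and 2.69 points higher for H2B. It differed by -3.30 points for H3 and by -2.81 points for H4. The share of methylated reads in H4 transcripts was nevertheless higher, 36.97% in Neg against 39.6%. The H1 value rested largely on H1-3, whose 28 of the 168 CpGs had 25.2% in Neg against 40.2%. The other H1 transcripts differed by -12.55 to 6.18 points. The H4 value rested on H4C11, whose 22 of the 234 CpGs had 37.01% in Neg against 5.11%. Of these 22 CpGs, 21 were recurring. The other H4 transcripts differed by -1.39 to 3.625 points. The H3 value rested on H3C7, H3C12 and H3C11, with -22.6, -20.4 and -8.11 points over 18, 31 and 40 of the 340 CpGs. The other H3 transcripts differed by -0.83 to 4.97 points. The H3C12 transcript had no recurring CpG and was not called. The H2B value rested on H2BC13 (25.3 points, but 36 of 140 and 14 of 51 methylated reads) and H2BC6. H2BC6 had 84.99% in Neg against 100%, with 21 of 25 CpGs recurring. The other H2B transcripts differed by -12.3 to 5.84 points. Behind the end all 5 families had a higher mean, but the share of methylated reads of the H2B family was lower, 41.3% in Neg against 35.6%. Over single genes, the median difference within transcripts was -0.28 points, with 19 members higher, 27 lower and 3 equal. Over all protein-coding genes it was 3.61 points, but fewer of those transcripts were low. In Neg, 996 of 19398 were under 20%, against 24 of 49 for the members. Among transcripts under 20% in Neg, the median difference was -0.21 points for the members and 0.67 points for all genes. Behind the end the median difference over all tested members was 2.904 points, against 3.40 points over all protein-coding genes. The H2A family had pooled means of 22.3% and 13.2% within its 11 transcripts. Of these, H2AC8, H2AC13 and H2AC16 differed by -42.1, -37.8 and -45.7 points, H2AC14 by 24.2 points and the other 7 by -0.99 to 4.44 points, and 27 of the 31 CpGs of H2AC13 were recurring. Behind the H2A genes the pooled means were 24.6% and 38.1%, with single genes from -13.6 points (H2AC12) to 36.5 points (H2AC17). In the 1 kb before the start, the pooled means were 41.0% and 42.2%. The direction within transcripts turned to 1.01 points higher over the 253 CpGs that both libraries covered at least 5 times, and was -2.15 points without recurring CpGs.

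**Figure D3:**
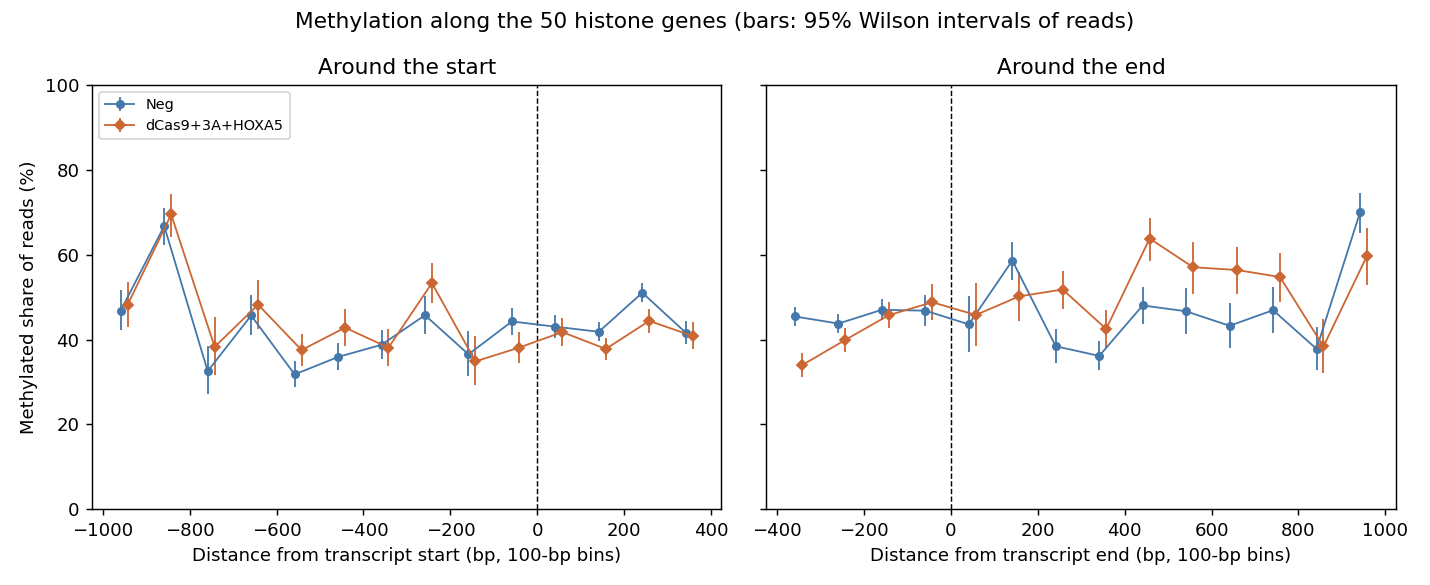
Share of methylated reads (%) in 100-bp bins around the transcript start (left) and end (right) of the 50 histone genes in Neg (circles) and dCas9+3A+HOXA5 (diamonds), with 95% Wilson intervals of reads as bars. In the bin from 400 to 499 bp after the end the share was 48.0% in Neg against 63.8% in dCas9+3A+HOXA5, while from 100 to 199 bp and from 900 to 999 bp after the end the order was the reverse, with 58.6% and 50.2% and with 69.9% and 59.7%, whereas the means over CpGs there were 50.8% and 50.4%, and 59.5% and 62.4%.

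Each zone was then tested over all protein-coding genes by the rule used for windows. Before the start, 0 of 48 tested members were called higher and 1 lower, H2BC13, with 1.49% of all genes called higher and 0.586% lower. H2BC13 had 39.1% and 6.06% over the 44 CpGs before its start, but 19.96% and 15.4% over the 13 of them that were not recurring and 31.25% and 14.8% over the 18 with at least 3 reads, and was called in neither of these. That stretch holds the whole H2AC13 transcript, and the H2BC13 promoter reaches into it, so the calls of H2BC13 and H2AC13 described below rest partly on the same CpGs and reads. Over the gene without flanks, 1 of 49 was called higher and 4 lower, with 2.01% of all genes called higher and 0.252% lower, the same members as over the transcripts below. Behind the genes, 3 of 47 tested members were called higher and 0 lower, with 1.03% of all genes called higher and 0.151% lower. All 3 were among the 21 members under 20% in Neg there, and of all genes under 20% in Neg 3.56% were called higher. The 3 members were H2AC11, H3C10 and H2AC17, of which the first is in the middle gene group and the others in the last, and their promoters were at 0% in both libraries.

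H2AC11 encodes a core histone of the H2A family and lies at chr6:27100822-27101314. The mean of the 29 CpGs behind it was 0.49% in Neg against 30.2% in dCas9+3A+HOXA5, with 1 of 135 methylated reads (interval 0.13 to 4.08%) against 13 of 52 (15.2 to 38.2%; exact test, adjusted p = 4.50e-05). Its transcript had 0 of 121 methylated reads in Neg, which allows a share of up to 2.48%, and 0 of 37 in dCas9+3A+HOXA5, which allows up to 8.11%. Its promoter had 0 of 85 and 0 of 61. None of the 29 CpGs behind the gene was recurring, so the value was the same without such CpGs.

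H3C10 encodes histone H3 and has its canonical transcript at chr6:27777829-27778314. Behind it, 15 CpGs had 2.51% in Neg against 24.9% in dCas9+3A+HOXA5, with 5 of 111 methylated reads (interval 1.94 to 10.1%) and 40 of 138 (22.07 to 37.04%; exact test, adjusted p = 5.79e-05). Its promoter had 0 of 51 and 0 of 37 methylated reads, and its transcript stood at 2.28% and 2.63%. No CpG of its window was recurring. A longer form of the gene is annotated to position 27779078, so that these CpGs lie behind the canonical transcript but partly inside the gene. With at least 3 reads per CpG, 14 CpGs remained at 2.69% and 26.6%, and the call held.

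H2AC17, at chr6:27860477-27860963, had 18.2% behind its end in Neg against 54.7% in dCas9+3A+HOXA5 over 24 CpGs, with 19 of 86 methylated reads (interval 14.6 to 31.9%) and 41 of 76 (42.8 to 64.7%; exact test, adjusted p = 0.00331). Its promoter had 0 of 85 and 0 of 32 methylated reads, which allow up to 3.53% and 9.38%. Over the 18 CpGs that were not recurring the levels were 11.8% and 45.4%, and the call was lost. The CpGs behind H2AC17 lie inside the annotated gene of H3C12 (chr6:27858093-27860884). H2BC4, an H2B gene with a promoter at 0% in both libraries, showed values of the same direction behind its end, 4.46% and 20.5% over 28 CpGs, and was not called (exact test, adjusted p = 0.0909). These 28 CpGs lie behind the canonical transcript of H2BC4 but inside the annotated gene. The 3 called members were also called by the test within each CpG. With at least 3 reads per CpG the call held for H3C10 alone, while H2AC11 had 0% and 20.8% over 6 CpGs and H2AC17 22.3% and 55.8% over 11 CpGs.

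Within the transcripts, 1 of 49 tested members was called higher and 4 lower, with 2.03% of all canonical transcripts called higher and 0.284% lower. The 4 called lower were H2AC8, H2AC13, H4C11 and H2AC16, and the 1 called higher was H2AC14. The shares over all genes, here and for the gene without flanks, were not matched for length. The member transcripts spanned 357 to 797 bases, whereas transcripts of all genes were taken with their introns. Over zones of fixed size, larger shares were called lower: 0.586% in the 1 kb before the start and 0.753% of promoters. By the test within each CpG, H2AC8, H2AC13 and H4C11 were called, but not H2AC16 or H2AC14. With at least 3 reads per CpG the call lower held for H2AC8 alone. H2AC13 then had 27.1% and 16.7% over 10 CpGs, H4C11 19% and 2.5% over 5 CpGs, and H2AC14 77.05% and 93.9% over 10 CpGs, none of them called. Of H2AC16 1 CpG remained, which was not tested.

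H2AC8, at chr6:26217149-26217665, had 83.1% in Neg against 40.9% in dCas9+3A+HOXA5 over 33 CpGs of its transcript, with 120 of 147 methylated reads (interval 74.6 to 87.1%) and 73 of 128 (48.4 to 65.3%; exact test, adjusted p = 5.11e-05). Its promoter stood at 93.1% and 89.9% and the 1 kb behind it at 75.1% and 93.05%, so that the lower level lay between methylated flanks. Only 2 of the 33 CpGs were recurring, and the other 31 had 86.0% and 42.5%. The mean over CpGs differed by -42.1 points and the share of methylated reads by less, from 81.6% to 57.0%, because reads were spread unequally over the CpGs.

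H2AC16, at chr6:27833095-27833576, had 48.2% in Neg against 2.50% in dCas9+3A+HOXA5 over 20 CpGs of its transcript, with 26 of 65 methylated reads (interval 29.0 to 52.1%) and 2 of 29 (1.91 to 21.96%; exact test, adjusted p = 0.00344). Its promoter had 75.3% and 20% over 10 CpGs, with 17 of 24 and 2 of 14 methylated reads, and did not reach the adjusted threshold (exact test, adjusted p = 0.0411). In contrast, its 1 kb before the start had 73.0% and 91.3%, and its 1 kb after the end 79.4% and 94.5%. The CpGs after its end are also those after the end of H1-5. The whole window of H2AC16 had 68.4% and 67.2%. The 15 window CpGs that both libraries covered at least 3 times had 56.4% and 92.4%, but nearly all of them lay outside the transcript. Without recurring CpGs, 14 CpGs of the transcript stood at 50.7% and 3.57%, with 34 and 23 reads, and the call was lost.

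H2AC13 and H4C11 rested on CpGs in near-identical sequence. H2AC13 had 43.2% in Neg against 5.37% in dCas9+3A+HOXA5 over 31 CpGs of its transcript (66 of 150 and 5 of 58 methylated reads; exact test, adjusted p = 3.09e-06). Of these CpGs, 27 were recurring, and the other 4 stood at 17.7% and 25.0%. H4C11, at chr6:27791870-27792258, had 37.01% and 5.11% over 22 CpGs (38 of 104 and 2 of 58 methylated reads; exact test, adjusted p = 4.57e-06), of which 21 were recurring. Both calls could therefore not be made on CpGs with unique surroundings, and the part of misplaced reads in them was not tested.

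H3C7, an H3 gene at chr6:26250370-26250863, was called under this filter alone. It had 63.0% and 40.5% over 18 CpGs of its transcript and was not called, whereas the 13 CpGs that were not recurring had 61.9% and 23.3% and were called lower (exact test, adjusted p = 0.00737).

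**Figure D4:**
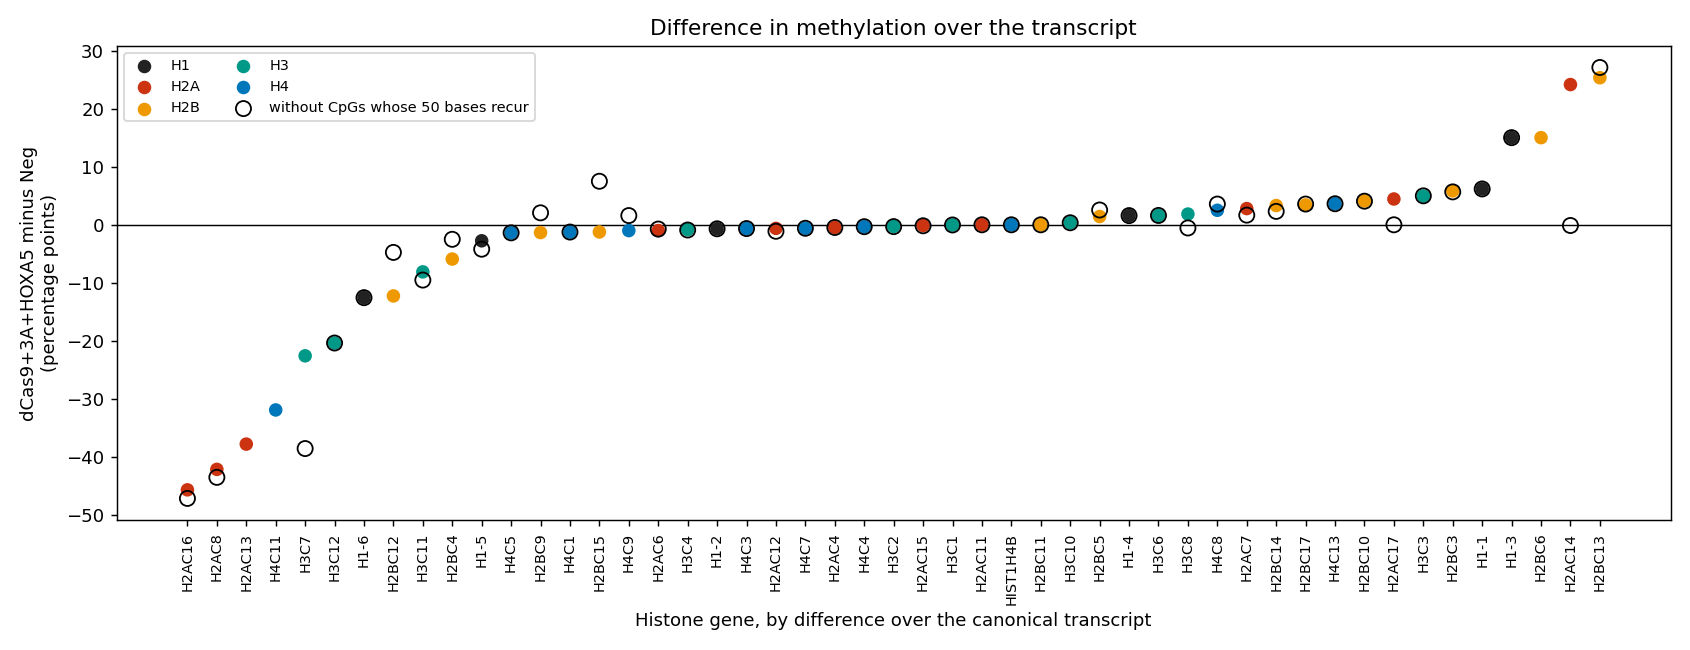
Difference in methylation over the canonical transcript (dCas9+3A+HOXA5 minus Neg, percentage points) for the 49 histone genes with at least 5 covered CpGs, coloured by family, with open circles for the value without recurring CpGs where at least 5 CpGs remained. H2AC8 and H2AC16 had differences of -43.5 and -47.1 points without such CpGs, whereas H2AC14 went from 24.2 to -0.12 points.

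The windows of the pairs H2BC13 with H2AC13 and H2AC14 with H2BC14 differed in opposite directions, but not without recurring CpGs. None of these windows was called in the main test, and those of each pair overlap. The inverted stretches between their starts, printed above, were both lower in dCas9+3A+HOXA5. For H2BC13, an H2B gene at chr6:27775257-27775707, the promoter had 40.7% in Neg against 5.53% in dCas9+3A+HOXA5 over 36 CpGs, with 78 of 198 methylated reads (interval 32.9 to 46.3%) and 9 of 108 (4.45 to 15.1%). It was the 1 promoter called lower among the 49 tested (exact test, adjusted p = 2.89e-07), with 0.753% of all promoters called lower. The difference was -35.2 points, and the call was lost with at least 3 reads per CpG (-24.6 points over 18 CpGs), from 250 bp before to 50 bp after the start (-25.5 points over 13 CpGs) and in 1 kb around the start (-11.97 points over 56 CpGs). None was called higher, with 1.12% of all promoters called higher. By the test within each CpG the counts were the same, with 1.05% of all promoters called higher and 0.637% lower, and without the threshold on size 0 members were higher and 1 lower, with 1.70% and 1.24% of all. In the stretch between the starts of H2BC13 and H2AC13, 11 CpGs had a mean of 34.7% in Neg against 9.09% in dCas9+3A+HOXA5, with 18 of 57 methylated reads against 5 of 47 (Fisher's exact test, p = 0.0165, 2-sided and not adjusted). Of the 11 CpGs, 6 were lower, 2 higher and 3 equal. The transcript of H2BC13 had 23.9% and 49.2% over 22 CpGs, the opposite direction, but 36 of 140 and 14 of 51 methylated reads, and was not called (exact test, adjusted p = 0.909).

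H2AC14, at chr6:27782080-27782555, had 73.2% and 97.4% over 23 CpGs of its transcript, with 116 of 150 methylated reads and 61 of 65 (exact test, adjusted p = 0.00820), and 18 of the 23 were recurring. The neighbouring promoter of H2BC14, which reaches into the H2AC14 transcript, had 75.0% and 96.0% over 24 CpGs and was not called (exact test, adjusted p = 0.159). Of these CpGs, 20 were recurring. The other 4 had 97.5% and 86.35%, with 24 of 25 and 25 of 31 methylated reads. Between the starts of H2AC14 and H2BC14, the 4 CpGs read in both libraries had 18 of 18 methylated reads in Neg and 30 of 34 in dCas9+3A+HOXA5 (Fisher's exact test, p = 0.285, not adjusted). Over the windows, H2BC13 and H2AC13 stood at 34.5% and 31.8% in Neg and at 22.3% and 19.3% in dCas9+3A+HOXA5, while H2AC14 and H2BC14 stood at 83.0% and 84.1% in Neg and at 97.8% and 96.1% in dCas9+3A+HOXA5.

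Near-identical copies moved with both pairs. Between 31 and 43 CpGs of each of these 4 windows were recurring. Without them the windows of H2BC13 and H2AC13 had 29.0% and 20.8% in Neg against 29.6% and 27.4% in dCas9+3A+HOXA5, and those of H2AC14 and H2BC14 had 92.4% and 90.5% against 96.9% and 94.5%. The promoter of H2BC13 then had 28.6% and 15.3% over 13 CpGs (exact test, adjusted p = 0.568), and the H2AC14 transcript 94.7% and 94.5% over 5 CpGs. The part of reads exchanged between the pairs was not tested.

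Of the remaining head-to-head pairs, those with a CpG read in both libraries had no methylated read between their starts. H2BC11 to H2AC11, printed above, had 0 of 10 methylated reads in Neg and 0 of 12 in dCas9+3A+HOXA5, which allow shares of up to 30% and 25%. H2AC15 to H2BC15 had 0 of 27 and 0 of 15, which allow up to 11.1% and 20%. H2BC4 to H2AC6 and H2BC12 to H2AC12 had 3 to 6 reads each, none of them methylated, and between H2AC17 and H2BC17 no CpG was read in both libraries.

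The other promoters with large differences did not pass. H2AC7 had 20.5% and 40.8% over 24 CpGs (exact test, adjusted p = 0.956), with 12 of the CpGs recurring. H3C4 had 82.4% and 94.3% over 20 CpGs, short of the adjusted threshold (exact test, adjusted p = 0.0387). H4C7 had 85.3% and 65.8% over 24 CpGs (exact test, adjusted p = 0.622). It had 84.1% and 47.6% over the 15 CpGs that were not recurring (exact test, adjusted p = 0.113), and was 5.10 points higher over the 8 CpGs with at least 3 reads. H4C11 had 18.0% and 0.69% over 18 CpGs (exact test, adjusted p = 0.0305), of which 15 were recurring, and the other 3 had 4.17% and 0%. For 34 of the 49 promoters (69.4%) the difference was within 5 points, against 68.6% of all promoters, and the median difference was 0 points over the members as over all promoters.

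**Figure D5:**
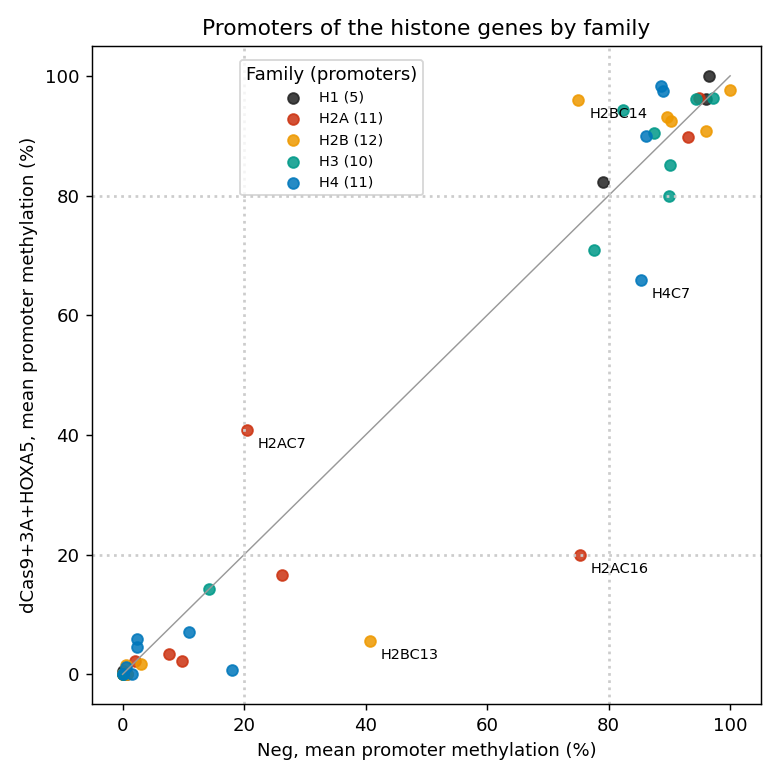
Mean promoter methylation (%) of the 49 histone genes with at least 5 covered CpGs in Neg (x axis) and dCas9+3A+HOXA5 (y axis), coloured by family, with dotted lines at 20% and 80% and the line of equal levels. The promoters gather in 24 points below 20% and 16 above 80%, and H2BC13 and H2AC16 lie far below the line of equal levels.

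The largest window difference of the H1 family was that of H1-5 (88.6% and 94.5%; exact test, adjusted p = 0.113) and the largest of the H4 family towards higher levels that of H4C12 (90.1% and 95.04%; exact test, adjusted p = 0.0151), neither called. The H1-5 transcript had 95.07% and 92.3%, and its 1 kb after the end 79.4% and 94.5%. The latter holds the same 27 CpGs and reads as the 1 kb after the end of H2AC16. H1-3, with a difference in means of 5.65 points, had methylated reads of 57.9% and 74.8% (exact test, adjusted p = 7.49e-05), and by the test within each CpG an adjusted p of 0.0113 (Mantel-Haenszel test). H2BC10 and H4C13, at 93.7% and 93.4% in Neg, had 95.7% and 94.6% in dCas9+3A+HOXA5. H4C3 was chosen after its values were seen: its window had 21.8% and 24.4% as a mean over 56 CpGs, but 16.5% and 51.1% of its reads were methylated. By the test that compares reads within each CpG it had an adjusted p of 0.932 (Mantel-Haenszel test).

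Genes that act with these members were examined by the same tests. Of 15 replication-dependent histone genes outside chromosome 6, 11 had covered windows and none was called, while 4 had no CpG read in both libraries. In 6 of the 9 tested promoters of this list the level was below 20% in both libraries and in 1 above 80%. The 11 replication-independent histone genes, which supply variants outside S phase, had window means with differences of 0.84 to 11.5 points, and none was called. The mean was above that of Neg in 16405 of all 19661 windows too, and for 4 of the 11 genes the share of methylated reads was lower in dCas9+3A+HOXA5. H2AJ had 63.0% in Neg and 74.5% in the other library, and H2AZ1 had 0.44% and 7.44%. For 10 of the 11 the promoter was below 20% in both libraries.

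Of 17 factors of histone gene transcription and histone mRNA 3′ end formation, none of 17 windows was called and 1 of 16 tested promoters was called higher, with 1.12% of all promoters called higher. This was NPAT, which activates histone genes as a substrate of cyclin E and CDK2. Its promoter had 1.04% in Neg against 23.75% in dCas9+3A+HOXA5 over 32 CpGs, with 2 of 131 and 36 of 84 methylated reads (exact test, adjusted p = 2.23e-12). From 250 bp before to 50 bp after the start its 13 CpGs did not differ, with a difference of 0 points, and in 1 kb around the start the difference was 13.3 points over 48 CpGs. With at least 3 reads per CpG, 10 CpGs of the NPAT promoter differed by 64.7 points. The remaining 15 tested promoters of this list were below 20% in both libraries, and none was called.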

How the data were processed

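CpG methylation was taken from the WGBS files of 1 Neg and 1 dCas9+3A+HOXA5 library. According to the study's methods, the authors used BSMAP for trimming and for alignment to hg19 (version 2.90 in the submitters' processing notes). The treatment of duplicates and of reads with several matching places was not given in the sources used here. For each CpG, the deposited files hold C and C or T counts, G and G or A counts from the other strand, an estimated count (C or T corrected by the latter) and the methylated fraction. CpGs needed 1 read in both libraries, although the methods state 5.

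Genes were placed by GENCODE release 44 in its GRCh37 mapping. Regions needed at least 5 CpGs. Fisher's exact tests used summed C and remaining C or T counts, with Benjamini-Hochberg adjustment over all protein-coding genes; reads of 1 fragment are not independent. A Mantel-Haenszel test stratified by CpG, the zones and their alternatives were added after the data were seen. The window test was checked on simulated data with independent reads and 1 methylated share per window. That check could not show false calls from reads of 1 fragment or from uneven depth over CpGs. Python 3.11.15, numpy 2.4.6, scipy 1.17.1, pandas 2.3.3 and matplotlib 3.10.9 were used. Groups came from the sample titles.

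The members and lists were chosen with earlier results of these data known. Genes named were those called, the largest gain and loss of each family, the 3 highest and 3 lowest Neg windows, testis genes, the 3 largest gains and losses of promoters, and called pathway genes; H1-3, H4C9, H2BC4, H4C3, H2AJ, H2AZ1 and the other members described for their zones, classes or pairs were named after their values were seen.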

Additional observations from a re-analysis of the deposited data

How the results depend on the processing

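No paired analysis was possible because both groups hold a single library, and no library was left out. Depth limits all values: 533 of the 3531 CpGs had 5 reads in both libraries. The cause of a change was not tested.

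Of the 50 windows, none was called higher or lower in the main test, without recurring CpGs, without the deepest CpGs, with the uncorrected ratio, with other minimums of CpGs, over canonical transcripts with 1 kb, or by the stratified test. With at least 5 reads 1 was called higher (H3C10, 4.19% to 40.0%) and with at least 3 reads 2 (H2AC16 and H2AC17). The H2AC16 window then differed by 35.9 points, with nearly all of its CpGs outside the transcript. By the share of methylated reads 2 were called higher (H4C3 and H2AC17) and 1 lower (H4C11). Without flanks 1 was called higher and 4 lower, with 500 bp flanks 3 lower, above 10 points 4 higher and 3 lower, and after subtracting the median of chromosome 6, 1 lower. The share of all windows called is given here only for the main test, the stratified test, the threshold of 10 points and the gene without flanks. Counts under the other settings have no such share beside them.

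Of the promoters, 1 was called lower in the main test. The count was 0 with at least 5 or 3 reads, without recurring CpGs, and from 250 bp before to 50 bp after the start. In 1 kb around the start 3 were called lower (H2AC8, H2AC13 and H4C11), and the call of H2BC13 was lost. Without the deepest CpGs 1 was called higher (H2BC14). The share of all promoters called under these alternatives is not given here, so the counts have no such share beside them.

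The pooled promoter difference of -1.51 points turned to 0.65 with at least 5 reads, 0.040 with at least 3 and 0.68 by share of reads. The pooled transcript difference of -2.55 points turned to 1.01 with at least 5 reads, and was -0.60 with at least 3 reads and -2.15 without recurring CpGs. The pooled window difference of 1.79 points was 1.87 with at least 3 reads and ran from 1.29 to 3.74, the latter with at least 5 reads, over 7 alternatives. For the spaces between genes, the 6 alternatives ran from 3.74 to 4.66 points.

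In the zones, 1 member was called lower before the start, against 0 with at least 3 reads and 0 without recurring CpGs. In transcripts, 1 higher became 0 under the stratified test, with at least 3 reads and without recurring CpGs, and 4 lower became 1 with at least 3 reads and 2 without recurring CpGs (H2AC8 and H3C7). Behind the genes, 3 higher became 1 with at least 3 reads. Among windows and promoters of single named genes, zones not included, 405 values under alternatives kept direction and side of the threshold, 44 turned direction with no call in either setting, 17 became calls, 6 lost the call and 1, the H2AC16 window, turned direction with a call.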
